A study of Mus musculus with 6 samples.

Results

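The genes described here are 38 markers of macrophages and dendritic cells, the phagocytes that take up microbes and dead cells in the gut wall and present their antigens. They were chosen by gene name. Of the 38, 24 were rows of the authors' deposited comparison table and 14 were looked up by Ensembl identifier in the deposited count table, which holds 46078 genes. Enough reads for a test were found for 27 of the 38, among 16856 genes tested in all.

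RNA came from the epithelial fraction of the colon, loosened from the tissue in a wash with EDTA, in 3 libraries from Lingo3-/- mice and 3 from wild type mice, all 2 months old and kept under naive conditions. The Lingo3 protein sits in the cell membrane and carries leucine-rich repeats. The labels give no strain or sex and do not say in which cells the gene was disrupted or whether each library is a separate animal. The p-values therefore reflect only how these 6 libraries vary, and part of that variation may be technical. DTT is added to EDTA in the label of wild type replicate 1 and is missing from the other 5 labels, although the protocol given for all 6 has both.

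Macrophages depend on the receptor Csf1r and its ligands, and the transcription factor PU.1, the product of Spi1, drives much of their gene programme. The mucosa of the mouse colon holds many macrophages, which lie mainly under the epithelium and are replaced in good part by blood monocytes that carry Ccr2. Dendritic cells depend on Flt3, and their cross-presenting branch carries Xcr1 and Clec9a. Several genes used as myeloid markers, among them Tyrobp, Fcer1g, Itgax, Ccr2 and Laptm5, are also known from lymphocytes, including those within the epithelium.

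Depth differed between the genotypes. Counts over genes ran from 11868000 to 17200931 in the Lingo3-/- libraries and from 25010618 to 28029583 in the wild type libraries. Levels are given as CPM, counts scaled to library size with TMM factors, and 3 counts corresponded to 0.154 to 0.240 CPM in Lingo3-/- and 0.113 to 0.140 CPM in wild type libraries. Such floors cover counting error only, since reads without molecular identifiers are not independent molecules. Transcripts of the mitochondrial genome took 34.7 to 36.3% of counts in Lingo3-/- and 45.3 to 48.4% in wild type libraries. The targeted gene had 2, 0 and 1 counts in Lingo3-/- replicates 1, 2 and 3 and 3, 3 and 1 counts in the wild type replicates, at or under the floor in both genotypes, so it does not check the labels.

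Of the 27 tested genes 7 fell in Lingo3-/- and 0 rose. The threshold was a Benjamini-Hochberg adjusted p of 0.05 over all genes tested, from the quasi-likelihood test of edgeR. They were Mertk, Fcer1g, Ncf1, Ncf4, Itgax, Ccr2 and Laptm5, with log2 fold changes from -0.58 to -1.20. This is 25.9% of the tested markers, beside 5.97% of all genes tested that fell and 9.43% that rose. At an unadjusted p under 0.05 there were 9 lower and 1 higher, a threshold at which no share over all genes was taken. With DESeq2 8 fell and 1 rose, where 1084 of all 16856 genes fell and 1417 rose. With limma-voom 7 fell and 0 rose, where 929 of all genes fell and 1503 rose. The median log2 fold change was -0.39 over the 27 genes and -0.03 over all genes tested. In 9 of the 38 genes (8 of the 27 tested) every Lingo3-/- library lay below every wild type library, and in 0 every one lay above. Over all genes tested 16.0% lay fully below and 19.7% fully above. In a bulk sample fewer cells of a type and less RNA per cell cannot be told apart.

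The counts depended on single libraries, as did those over all genes. Without Lingo3-/- replicate 1, 9 genes fell. The number that fell was 4 without Lingo3-/- replicate 2 and 3 without Lingo3-/- replicate 3. Leaving out wild type replicate 1 gave 6, leaving out replicate 2 gave 4 and leaving out replicate 3 gave 3. Over all genes tested 1007 fell with all libraries, and 1070, 473 and 413 without Lingo3-/- replicates 1, 2 and 3. Without wild type replicates 1, 2 and 3 that number was 855, 581 and 743. Without Lingo3-/- replicate 2, 5 genes rose, which were Adgre1, C1qa, C1qc, Itgam and Timd4, beside 898 of all 17787 genes tested. Timd4 met the filter there only through the Lingo3-/- libraries, where it was high, so its call is no support for a rise. Leaving out any other library gave 0 that rose. With no filter on low counts 4 of all 38 rose, which were C1qa, C1qb, Itgam and Timd4, and 8 fell. In that fit 1980 of all 29129 genes tested rose and 1675 fell. The call of Mertk and that of Ncf1 held in each of the 14 alternative fits, whereas the other 5 genes that fell lost theirs in at least 1 of them.

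The Lingo3-/- libraries differed among themselves in these genes far more than the wild type libraries did. Over the 27 tested genes the highest Lingo3-/- library stood at a median of 2.49 times the lowest, against 1.36 times in wild type. Over 16832 tested genes with counts in all 6 libraries these medians were 1.28 in Lingo3-/- and 1.24 in wild type. The range was wider in Lingo3-/- for 25 of the 27 genes (92.6%), beside 56.5% of those 16832 genes. Replicate 1 was the highest of the 3 Lingo3-/- libraries for 22 of the 27 genes, where it was the highest for 33.6% of all genes tested. It was the highest of all 6 libraries for 12 of the 27, beside 11.7% of all genes tested. These are descriptions with no test. The genes compared were not matched to the 27 in level. Counting error, which is larger for genes with few counts and in the shallower Lingo3-/- libraries, was not separated from this spread.

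**Figure D1:**
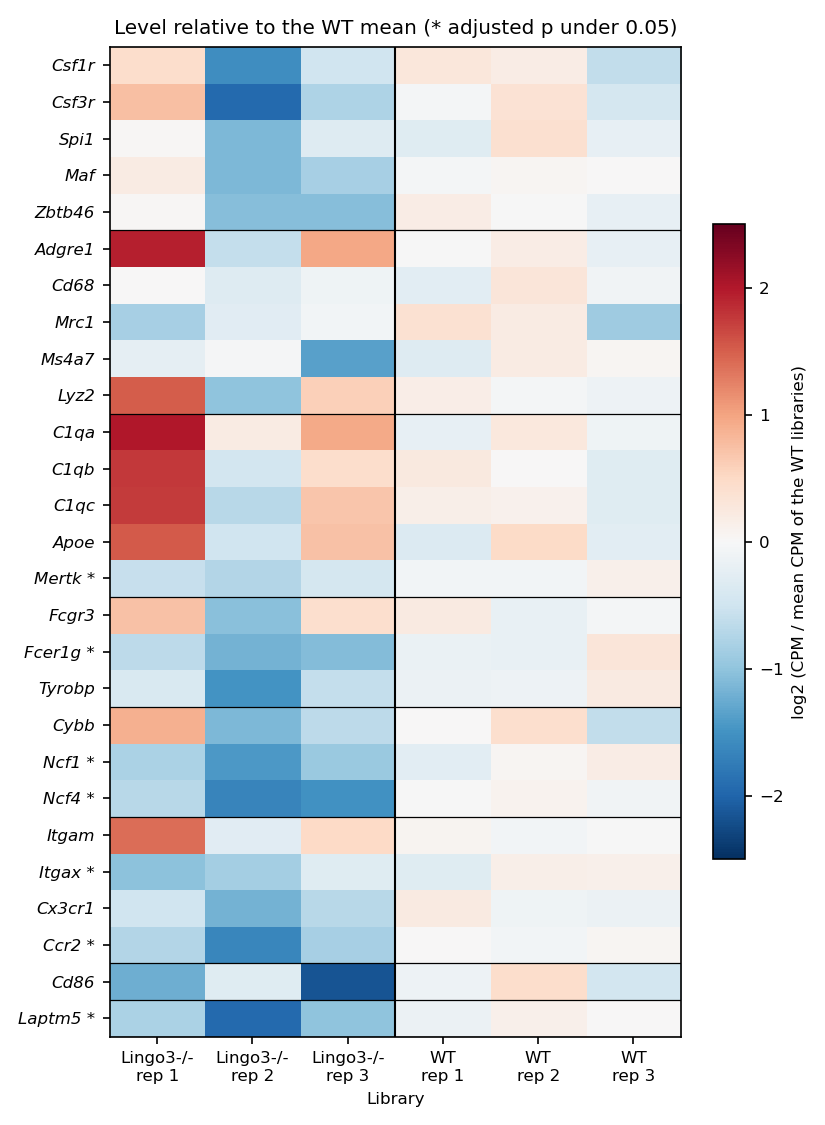
Level of each tested macrophage or dendritic cell gene in each library, as log2 of its CPM over the mean CPM of the 3 wild type libraries, with genes grouped by role. Lingo3-/- replicate 1 is high for Adgre1, Lyz2, C1qa, C1qb, C1qc, Apoe and Itgam (2.63 to 4.01 times the wild type mean), while all 3 Lingo3-/- libraries are low for Fcer1g, Ncf1, Ncf4, Ccr2 and Laptm5.

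Growth factor receptors and lineage factors come first. Csf1r, the receptor for colony stimulating factor 1, had 10.1, 2.55 and 5.28 CPM in Lingo3-/- replicates 1, 2 and 3, against 9.02, 8.45 and 4.90 CPM in the wild type replicates. The groups overlapped fully, with Lingo3-/- replicate 1 highest and replicate 2 lowest, and the log2 fold change was -0.31 ± 0.52 (SE; edgeR adjusted p = 0.731). Its sign turned to 0.08 without Lingo3-/- replicate 2. Of the exon length of Csf1r 15.1% is shared with Hmgxb3 on the opposite strand, and the sources used here do not say whether counting used the strand. Spi1 had 16, 7 and 8 counts in Lingo3-/- libraries and 14, 28 and 16 counts in wild type libraries (log2 fold change -0.40, edgeR adjusted p = 0.515). Maf, a transcription factor of macrophages and of T cell subsets, had 12.1, 4.83 and 5.92 CPM in Lingo3-/- libraries and 10.1, 10.9 and 10.5 CPM in wild type libraries. Here replicates 2 and 3 of Lingo3-/- lay below all wild type libraries and replicate 1 above them. Maf did not pass with all libraries (log2 fold change -0.45, edgeR adjusted p = 0.374) and fell without Lingo3-/- replicate 1 (-0.97, edgeR adjusted p = 0.00452). Zbtb46, a transcription factor of classical dendritic cells that endothelial cells also express, was likewise low in replicates 2 and 3, with 3.04, 1.43 and 1.44 CPM in Lingo3-/- and 3.41, 2.98 and 2.60 CPM in wild type libraries. Replicate 1 lay within the wild type range. The fitted change was -0.58 (edgeR adjusted p = 0.208), and -1.05 without Lingo3-/- replicate 1 (edgeR adjusted p = 0.0278). Csf3r, the receptor for granulocyte colony stimulating factor, had 27, 4 and 6 counts in Lingo3-/- and 17, 28 and 14 counts in wild type libraries (log2 fold change -0.20, edgeR adjusted p = 0.832), with a sign that depended on the library left out. Flt3 had 5, 2 and 0 counts in Lingo3-/- and 7, 5 and 7 counts in wild type libraries, too few for the test.

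The defining macrophage markers did not pass in either direction, by edgeR over all libraries. Adgre1 encodes F4/80, the classical surface marker of mouse macrophages, and lies on chromosome 17 from 57358691 to 57483527 (GRCm38). It had 169, 28 and 55 counts in Lingo3-/- replicates 1, 2 and 3, or 8.70, 1.49 and 4.40 CPM, against 48, 68 and 45 counts in the wild type replicates, or 2.24, 2.56 and 1.95 CPM. Lingo3-/- replicate 1 thus stood at 3.86 times the wild type mean and replicate 2 at 0.659 times. The log2 fold change was 1.11 ± 0.60 (SE; edgeR adjusted p = 0.262), and 1.56 without Lingo3-/- replicate 2 (edgeR adjusted p = 0.00836). Lyz2, lysozyme 2 of the myeloid lineage, had 161, 28.1 and 84.6 CPM in Lingo3-/- libraries and 62.8, 54.1 and 51.5 CPM in wild type libraries. Its log2 fold change was 0.70 ± 0.65 (SE; edgeR adjusted p = 0.526), and reads could be split with the closely similar Lyz1, so its level is uncertain. Cd68, a lysosomal glycoprotein of phagocytes, had 2.32, 1.86 and 2.16 CPM in Lingo3-/- and 1.92, 2.87 and 2.17 CPM in wild type libraries. Unlike for Adgre1 and Lyz2, replicate 1 did not stand out for Cd68, whose log2 fold change was -0.14 (edgeR adjusted p = 0.730; 0.14 with library totals only).

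Other surface markers of resident macrophages were scarce. Timd4, the phosphatidylserine receptor of long-lived macrophages, had 46, 5 and 8 counts in Lingo3-/- replicates 1, 2 and 3 and 5, 9 and 10 counts in the wild type replicates. More than the counts of all other libraries together were in Lingo3-/- replicate 1, at 7.06 times the wild type mean. Timd4 missed the filter with all libraries, and with no filter on low counts its log2 fold change was 1.73 (edgeR adjusted p = 0.00133). Without wild type replicates 1, 2 or 3, where it passed the filter, it was 1.56, 1.75 and 1.95 (edgeR adjusted p = 0.286, 0.296 and 0.243). Timd4 passed there only through Lingo3-/- replicates 1 and 3, where it was high, so these fits are no support for a rise. Cd163, a haemoglobin scavenger receptor, had 10, 2 and 5 counts in Lingo3-/- and 3, 5 and 6 counts in wild type libraries. Mrc1, the mannose receptor, had 1.08, 1.59 and 1.84 CPM in Lingo3-/- and 2.53, 2.22 and 1.04 CPM in wild type libraries (log2 fold change -0.38, edgeR adjusted p = 0.485). For Mrc1 the lowest Lingo3-/- library was replicate 1. Ms4a7, a tetraspan membrane protein of macrophages, had 1.39, 1.59 and 0.640 CPM in Lingo3-/- and 1.31, 1.89 and 1.69 CPM in wild type libraries (log2 fold change -0.39, edgeR adjusted p = 0.443).

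**Figure D2:**
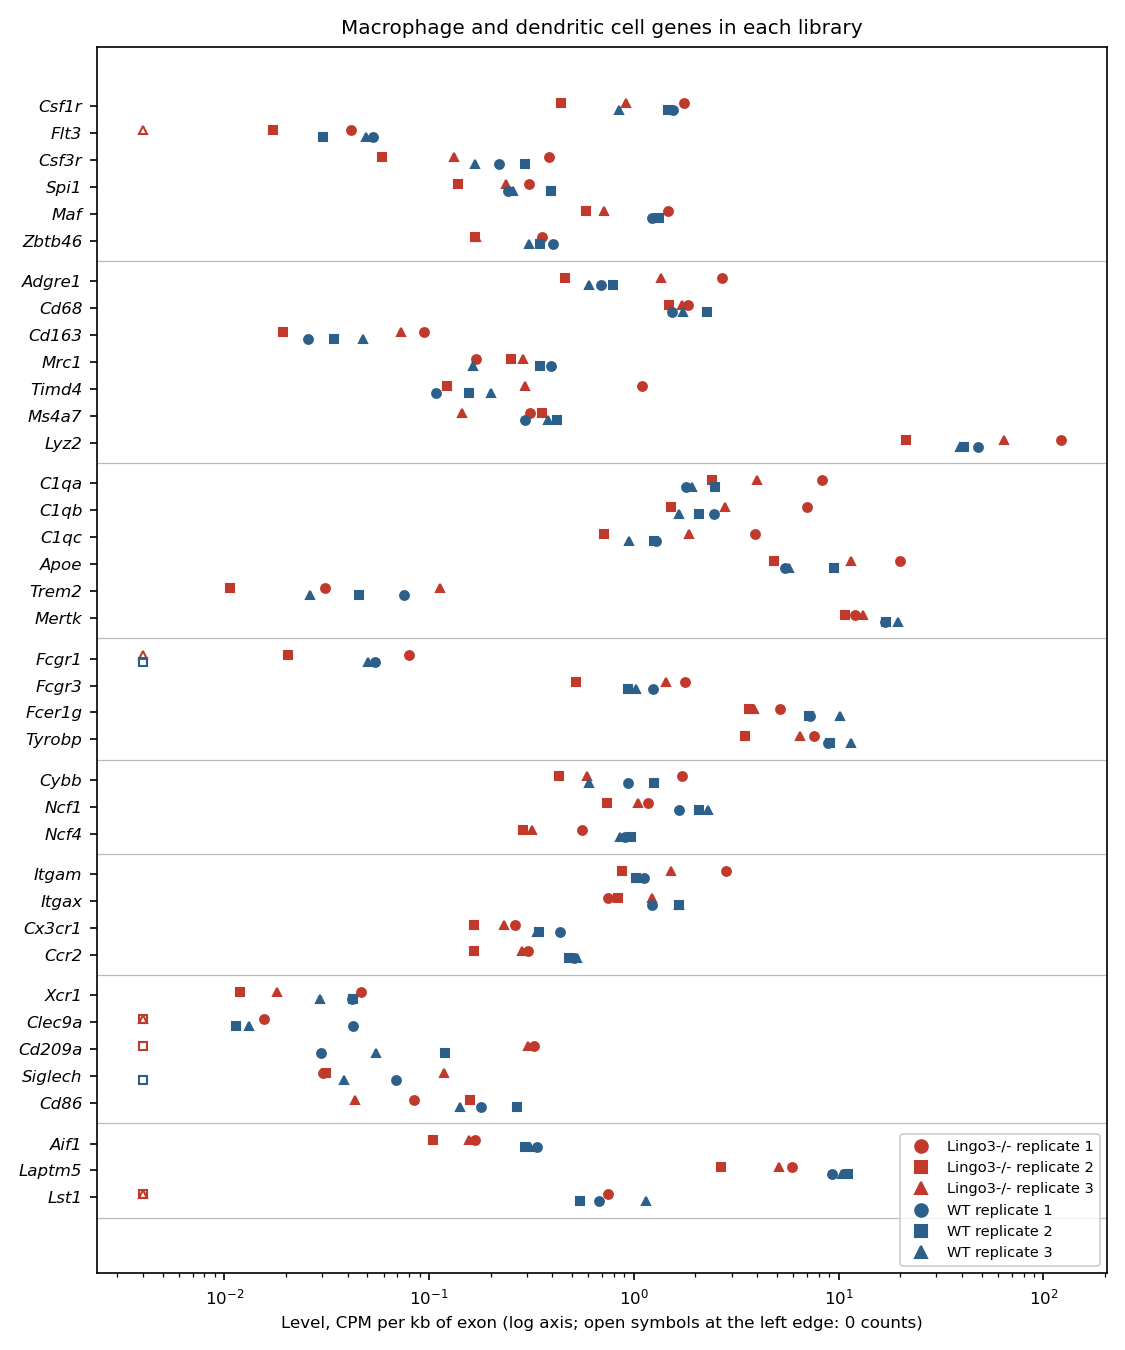
Level of each of the 38 genes in each library, in CPM per kb of exon on a log axis, with Lingo3-/- libraries above wild type libraries in each row and open symbols for libraries with 0 counts. Lyz2 has the highest mean, with 69.3 CPM per kb in Lingo3-/- and 42.6 in wild type, while Flt3, Xcr1, Clec9a and Fcgr1 lie below 0.1 CPM per kb in every library.

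Per length, Lyz2 was the highest of the 38 genes, with a mean of 69.3 CPM per kb of exon in Lingo3-/- and 42.6 CPM per kb in wild type. Mertk followed in wild type with 12.0 CPM per kb in Lingo3-/- and 17.8 CPM per kb in wild type, and Apoe had 12.1 and 6.90 CPM per kb in Lingo3-/- and wild type. Csf1r had 1.03 and 1.29 CPM per kb in Lingo3-/- and wild type. The level of Mertk per length was thus more than 10 times that of Csf1r in either genotype.

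C1qa, C1qb and C1qc encode the chains of C1q, the recognition part of the classical complement pathway, which in tissues is made mainly by macrophages. They lie next to each other on chromosome 4, C1qb from 136880129 to 136886187, C1qc from 136889804 to 136893065 and C1qa from 136895917 to 136898803 (GRCm38). C1qa had 168, 47 and 52 counts in Lingo3-/- replicates 1, 2 and 3 and 40, 69 and 46 counts in the wild type replicates. C1qb had 148, 31 and 38 counts in Lingo3-/- and 57, 60 and 42 counts in wild type, and C1qc had 146, 26 and 45 counts in Lingo3-/- and 53, 64 and 42 counts in wild type. All chains shared the same order of the Lingo3-/- libraries in CPM, replicate 1 highest and replicate 2 lowest. In replicate 1 they stood at 4.01, 3.39 and 3.36 times the wild type mean for C1qa, C1qb and C1qc. The log2 fold change of C1qa was 1.25 ± 0.43 (SE; edgeR adjusted p = 0.0928). It passed with library totals only (1.53, edgeR adjusted p = 0.0265), with DESeq2 (1.24, DESeq2 adjusted p = 0.00863), with no filter (1.25, edgeR adjusted p = 6.52e-06) and without Lingo3-/- replicate 2 (1.59, edgeR adjusted p = 0.0115). In the authors' deposited table, made with DESeq2, C1qa was also called higher, with a log2 fold change of 1.26 (adjusted p = 0.00537). C1qb (0.89, edgeR adjusted p = 0.309) and C1qc (0.91, edgeR adjusted p = 0.325) did not pass. C1qc passed without Lingo3-/- replicate 2 (1.34, edgeR adjusted p = 0.0215).

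Genes of lipid handling and of the uptake of dead cells did not move together. Apoe, the apolipoprotein that macrophages and other cells secrete, had 42.5, 10.4 and 24.6 CPM in Lingo3-/- and 11.6, 20.4 and 12.2 CPM in wild type libraries (log2 fold change 0.81 ± 0.58, SE; edgeR adjusted p = 0.413). Its Lingo3-/- libraries fell in the order seen for C1q, and the groups overlapped. Mertk, a receptor kinase for the uptake of apoptotic cells, (ENSMUSG00000014361) lies on chromosome 2 from 128698956 to 128802894. It had 52.0, 46.7 and 56.9 CPM in Lingo3-/- replicates 1, 2 and 3, against 73.1, 73.7 and 84.7 CPM in the wild type replicates. No Lingo3-/- library reached the wild type range, and Lingo3-/- replicate 1 did not stand apart from the others. Mertk fell by 0.58 on the log2 scale (SE 0.10, edgeR adjusted p = 0.00504), and it was lower in each fit without 1 library (-0.64 to -0.49, highest edgeR adjusted p = 0.0274). Trem2, a lipid-sensing receptor, had 3, 1 and 7 counts in Lingo3-/- and 8, 6 and 3 counts in wild type libraries, too few for the test.

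Fc receptors bind antibody-coated particles, and the adaptor chains Fcer1g and Tyrobp carry their signals and those of activating receptors of natural killer cells and some T cells. Fcer1g (ENSMUSG00000058715, chromosome 1 from 171229572 to 171234365) had 4.53, 3.18 and 3.36 CPM in Lingo3-/- libraries, against 6.36, 6.30 and 8.85 CPM in wild type libraries. The groups did not overlap, and Fcer1g fell by 0.95 on the log2 scale (SE 0.21, edgeR adjusted p = 0.0111), a call lost without Lingo3-/- replicate 3 (-0.89, edgeR adjusted p = 0.0566). Tyrobp, which encodes DAP12, had 5.05, 2.33 and 4.32 CPM in Lingo3-/- and 5.94, 6.03 and 7.68 CPM in wild type libraries. Its groups did not overlap either, but it missed the threshold (log2 fold change -0.75 ± 0.25, SE; edgeR adjusted p = 0.0674). Tyrobp passed with DESeq2 (DESeq2 adjusted p = 0.0375), with no filter (edgeR adjusted p = 0.00342), with the replicate number as a block (edgeR adjusted p = 0.0490) and without Lingo3-/- replicate 1 (-1.01, edgeR adjusted p = 0.0303). The low-affinity receptor gene Fcgr3 behaved unlike its adaptor chain, with 3.09, 0.902 and 2.48 CPM in Lingo3-/- and 2.15, 1.62 and 1.78 CPM in wild type libraries. The fitted change was 0.22 (edgeR adjusted p = 0.733), and -0.19 without Lingo3-/- replicate 1. Reads of Fcgr3 could be split with the similar Fcgr2b, so its level is uncertain. The high-affinity receptor gene Fcgr1 had 4, 1 and 0 counts in Lingo3-/- and 3, 0 and 3 counts in wild type libraries.

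The phagocyte oxidase makes superoxide, with Cybb as its membrane subunit and Ncf1 and Ncf4 as cytosolic subunits. Ncf1 (ENSMUSG00000015950, chromosome 5 from 134220053 to 134229625) had 4.27, 2.70 and 3.84 CPM in Lingo3-/- libraries, against 6.08, 7.58 and 8.37 CPM in wild type libraries. It fell by 1.03 on the log2 scale (SE 0.21, edgeR adjusted p = 0.00785), and without single libraries the change was -1.18 to -0.85 (highest edgeR adjusted p = 0.0354). Exons of Gtf2ird2 on the opposite strand overlap 11.1% of its exon length. Ncf4 (ENSMUSG00000071715, chromosome 15 from 78244801 to 78262580) had 22, 11 and 8 counts in Lingo3-/- and 39, 52 and 40 counts in wild type libraries, or 1.13, 0.583 and 0.640 CPM against 1.82, 1.96 and 1.73 CPM. It fell by 1.20 (SE 0.31, edgeR adjusted p = 0.0246), a call lost without Lingo3-/- replicates 2 (edgeR adjusted p = 0.0951) or 3 (0.0886) and without wild type replicates 2 (0.0778) or 3 (0.0520). Cybb, the catalytic subunit, went with the other pattern, with 9.94, 2.49 and 3.44 CPM in Lingo3-/- and 5.42, 7.24 and 3.51 CPM in wild type libraries. Its groups overlapped, and the fitted change (-0.01 ± 0.58 log2, SE; edgeR adjusted p = 0.994) turned sign in 5 of the 14 alternative fits.

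Integrin alpha chains and chemokine receptors split in the same way. Itgam, the CD11b chain of macrophages, monocytes and granulocytes, had 14.1, 4.40 and 7.60 CPM in Lingo3-/- and 5.61, 5.13 and 5.33 CPM in wild type libraries. Replicates 1 and 3 of Lingo3-/- were above every wild type library and replicate 2 below (log2 fold change 0.71 ± 0.39, SE; edgeR adjusted p = 0.270). It passed with no filter (0.72, edgeR adjusted p = 0.0166) and without Lingo3-/- replicate 2 (1.04, edgeR adjusted p = 0.0212). Itgax, the CD11c chain of dendritic cells and macrophages, which intraepithelial lymphocytes can also carry, (ENSMUSG00000030789) lies on the same chromosome 7 from 128129547 to 128150657. Itgax had 3.60, 4.03 and 5.92 CPM in Lingo3-/- and 5.89, 8.03 and 7.98 CPM in wild type libraries, so that the groups met at Lingo3-/- replicate 3. It fell by 0.72 on the log2 scale (SE 0.21, edgeR adjusted p = 0.0399). The call of Itgax was lost with library totals only (-0.44, edgeR adjusted p = 0.144), without Lingo3-/- replicates 1 (0.112) or 2 (0.122) and without wild type replicates 2 (0.129) or 3 (0.116).

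Ccr2, the receptor that brings monocytes into tissue and is also found on T cells, (ENSMUSG00000049103) lies on chromosome 9 from 124101950 to 124113557. It had 2.06, 1.11 and 1.92 CPM in Lingo3-/- and 3.46, 3.28 and 3.56 CPM in wild type libraries, with no overlap. It fell by 1.02 (SE 0.25, edgeR adjusted p = 0.0202), a call lost without Lingo3-/- replicates 2 (edgeR adjusted p = 0.0758) or 3 (0.0549) and without wild type replicate 3 (0.0553). Cx3cr1, the fractalkine receptor of resident macrophages and some lymphocytes, had 1.18, 0.743 and 1.04 CPM in Lingo3-/- and 1.96, 1.55 and 1.52 CPM in wild type libraries. All its Lingo3-/- libraries were lower, and it missed the threshold (log2 fold change -0.76 ± 0.29, SE; edgeR adjusted p = 0.101).

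**Figure D3:**
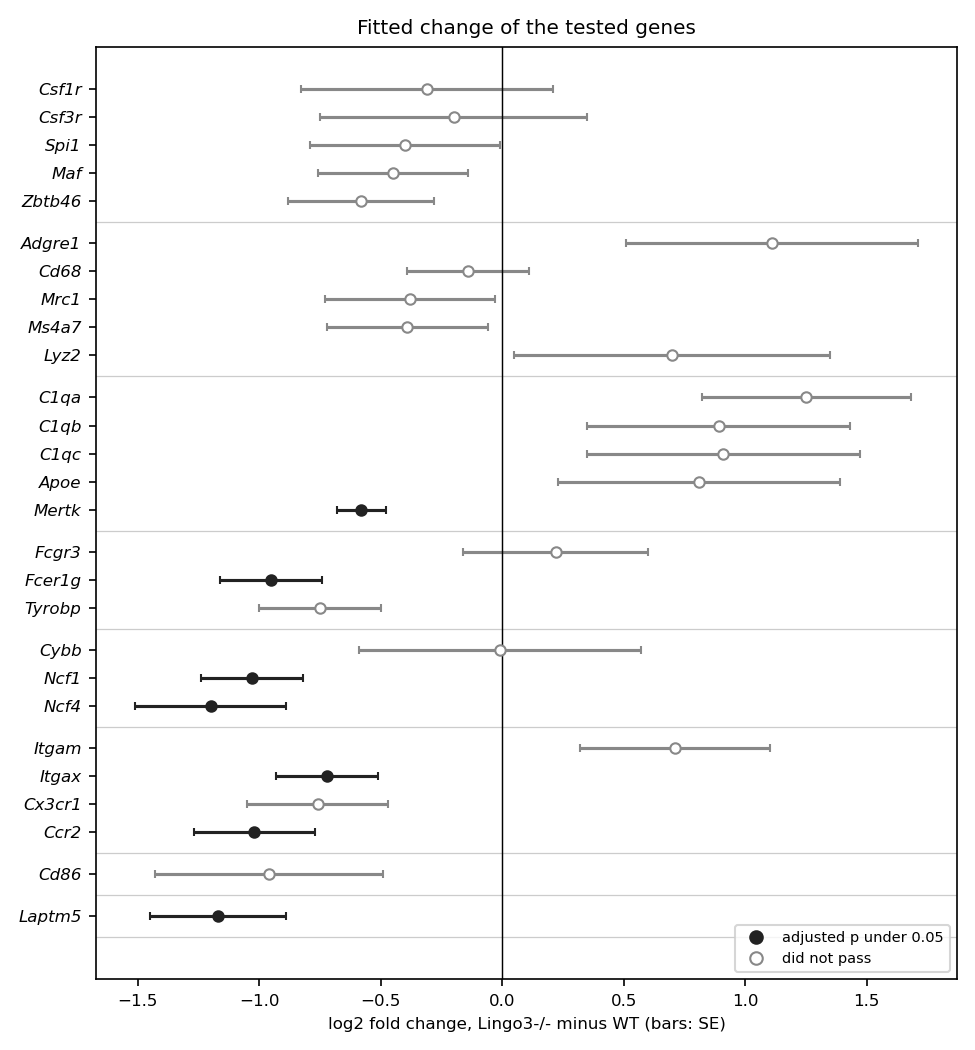
Fitted log2 fold change, Lingo3-/- minus wild type, of the 27 tested genes by role, with bars for the SE and filled points for an adjusted p under 0.05 in edgeR. The 7 filled points lie between -1.20 and -0.58, and the widest bars belong to genes such as Lyz2 (SE 0.65) and Adgre1 (SE 0.60) that vary widely among the Lingo3-/- libraries.

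Of the 5 genes grouped as dendritic cell markers 4 were at the limit of detection. Zbtb46 and Itgax, described above, had enough counts for the test. Xcr1 had 4, 1 and 1 counts in Lingo3-/- and 4, 5 and 3 counts in wild type libraries, and Clec9a, a receptor for dead cells on the same branch, had 1, 0 and 0 counts in Lingo3-/- and 3, 1 and 1 counts in wild type libraries. Cd209a, a lectin of monocyte-derived dendritic cells, had 10, 0 and 6 counts in Lingo3-/- and 1, 5 and 2 counts in wild type libraries. Siglech, a marker of plasmacytoid dendritic cells, had 2, 2 and 5 counts in Lingo3-/- and 5, 0 and 3 counts in wild type libraries. These 4 genes missed the filter, and with no filter 0 of them passed (edgeR adjusted p from 0.208 to 0.774). Without Lingo3-/- replicate 2, Cd209a met the filter only through Lingo3-/- replicates 1 and 3, where it was high. Its fitted log2 difference of 2.10 in that fit (edgeR adjusted p = 0.0752) is therefore no support for a rise. Cd86, a costimulatory ligand of dendritic cells, macrophages and B cells, was tested, with 6, 11 and 2 counts in Lingo3-/- and 14, 26 and 12 counts in wild type libraries. Its log2 fold change was -0.96 (edgeR adjusted p = 0.183).

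Among broad leukocyte genes Laptm5, a lysosomal membrane protein of blood cells that restrains antigen receptor signalling, had the highest level per length. It (ENSMUSG00000028581) lies on chromosome 4 from 130913125 to 130936141 and had 22.5, 10.1 and 19.4 CPM in Lingo3-/- libraries, against 35.1, 42.1 and 39.2 CPM in wild type libraries. The highest Lingo3-/- library lay well below the lowest wild type library. Laptm5 fell by 1.17 on the log2 scale (SE 0.28, edgeR adjusted p = 0.0407). Its call was lost with the replicate number as a block (-1.22, edgeR adjusted p = 0.0969), without Lingo3-/- replicate 3 (0.0997) and without wild type replicates 1 (0.0760), 2 (0.111) or 3 (0.0914). Aif1, a calcium-binding protein of macrophages, had 5, 3 and 3 counts in Lingo3-/- and 11, 12 and 11 counts in wild type libraries. These groups did not overlap in CPM either, but Aif1 missed the filter, and with no filter its log2 fold change was -1.11 (edgeR adjusted p = 0.242). Lst1, a small transmembrane protein of leukocytes, had 6, 0 and 0 counts in Lingo3-/- and 6, 6 and 11 counts in wild type libraries.

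The authors' deposited table lists 24 of the 38 genes and calls 8 of them lower and 1 higher at an adjusted p under 0.05, where it calls 6.72% of its 15138 genes lower and 1514 of them higher. Those 8 were the 7 genes named above and Tyrobp, for which it gives a log2 fold change of -0.74 (adjusted p = 0.0378). The table was made from the same libraries, so it is no independent check.

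Sequence before the RefSeq start is shown for genes of both patterns. These are Ncf1, Fcer1g and Laptm5 among those that fell and Itgam and C1qc among those highest in Lingo3-/- replicate 1. Promoter windows from RefSeq on GRCm38.p6 matched 29 of the 38 genes. The 250 bases before each start were searched on both strands for GAGGAAG, a core of PU.1 binding sites, as the only motif. It was present in 9 of the 33 windows of these genes (27.3%), which include several windows for some genes, and in 10.6% of all 32851 windows. The 200 bases before the RefSeq start are printed 5′ to 3′ on the gene's strand. The motif is in capitals, read as CTTCCTC where it lies on the other strand. For Laptm5 and C1qc the RefSeq start lies inside the gene span given above, which begins at 130913125 for Laptm5 and ends at 136893065 for C1qc. Most of these stretches, with the motif of Laptm5 but not that of C1qc, is therefore within the span. The stretch of Fcer1g reaches a few bases into its span.
Ncf1, chr5:134229626-134229825, minus strand: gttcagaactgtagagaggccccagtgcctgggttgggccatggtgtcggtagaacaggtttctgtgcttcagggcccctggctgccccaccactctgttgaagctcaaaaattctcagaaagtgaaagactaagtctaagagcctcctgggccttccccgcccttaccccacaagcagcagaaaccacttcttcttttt
Fcer1g, chr1:171234350-171234549, minus strand: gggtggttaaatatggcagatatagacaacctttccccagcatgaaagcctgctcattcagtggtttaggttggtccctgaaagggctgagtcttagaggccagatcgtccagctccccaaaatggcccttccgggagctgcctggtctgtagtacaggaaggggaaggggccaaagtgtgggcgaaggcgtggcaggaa
Laptm5, chr4:130913116-130913315, plus strand: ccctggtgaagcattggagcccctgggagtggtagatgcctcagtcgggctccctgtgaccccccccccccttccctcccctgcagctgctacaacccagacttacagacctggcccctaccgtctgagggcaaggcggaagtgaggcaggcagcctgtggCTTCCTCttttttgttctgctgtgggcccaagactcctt
Itgam, chr7:128062440-128062639, plus strand: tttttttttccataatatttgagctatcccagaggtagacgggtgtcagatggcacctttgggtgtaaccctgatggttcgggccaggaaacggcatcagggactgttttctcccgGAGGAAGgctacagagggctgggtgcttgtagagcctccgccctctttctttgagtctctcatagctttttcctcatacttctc
C1qc, chr4:136892915-136893114, minus strand: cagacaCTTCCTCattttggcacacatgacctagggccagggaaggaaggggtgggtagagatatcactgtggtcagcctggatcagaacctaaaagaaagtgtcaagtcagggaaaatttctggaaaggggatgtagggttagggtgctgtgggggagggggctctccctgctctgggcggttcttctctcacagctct
The motif was found once each in the stretches of Laptm5, Itgam and C1qc, and in neither that of Ncf1 nor that of Fcer1g. Among the other genes that fell, the windows of Mertk, Itgax and Ccr2 had no match, and Ncf4 had no window. Of other tested genes highest in Lingo3-/- replicate 1, the windows of C1qb, Apoe, Lyz2 and Cybb had none and those of Csf3r and Fcgr3 had the motif. Csf1r, Maf, Adgre1 and C1qa had no window. For Mertk and C1qb the sequence after the start was not found at the head of an annotated transcript, so their windows are uncertain. The stretches printed are examples, and whether the motif goes with either pattern was not tested. A match is a description of letters and not a bound site.

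Few other genes of mononuclear phagocytes passed the threshold. From a list of 45 such genes, 44 were matched and 32 tested. By edgeR 2 rose and 1 fell, beside the shares of 9.43 and 5.97% of all genes, and at an unadjusted p under 0.05 there were 4 in each direction. DESeq2 gave 2 higher and 2 lower, and limma-voom 2 higher and 1 lower. Without Lingo3-/- replicate 3 or wild type replicate 3, 1 rose, and without Lingo3-/- replicate 1 or any 1 wild type replicate, 2 fell. With library totals only 8 rose. The median log2 fold change of the 32 was 0.04. In 9 of the 44 matched genes every Lingo3-/- library lay below every wild type library, and in 2 every one lay above. Over all genes tested these shares were 16.0% and 19.7%. Cd14, the coreceptor for bacterial lipopolysaccharide, had 19.7, 19.9 and 26.5 CPM in Lingo3-/- and 13.0, 10.3 and 9.63 CPM in wild type libraries, and it rose by 1.00 on the log2 scale (edgeR adjusted p = 0.00242). P2ry6, a receptor for UDP, rose by 0.80 (edgeR adjusted p = 0.0197), a call lost without Lingo3-/- replicates 2 (0.0813) or 3 (0.0622) and without wild type replicates 2 (0.0585) or 3 (0.0562). Ms4a6b, which T cells also express, fell by 1.32 on the log2 scale (edgeR adjusted p = 0.00132). Lingo3-/- replicate 1 was the highest of the 6 libraries for 11 of the 32 genes, beside 11.7% of all genes tested. An example chosen after its values were seen was the scavenger receptor gene Msr1, with 4.63, 0.902 and 2.16 CPM in Lingo3-/- and 1.73, 0.980 and 0.824 CPM in wild type libraries (edgeR adjusted p = 0.225).

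Ligands of the receptors among the 38 genes, with the T cell partners of Cd86, were measured in the same libraries. Of 14 listed, 13 were matched and 8 tested, of which 1 rose and 4 fell by edgeR. Without Lingo3-/- replicates 2 or 3 or wild type replicate 2, 2 fell, where 473, 413 and 581 of all genes fell. Without Lingo3-/- replicates 2 or 3 or wild type replicate 3, 0 rose, where 898, 711 and 936 of all genes rose. Csf1, the main ligand of Csf1r, averaged 3.76 ± 0.412 CPM in Lingo3-/- and 9.19 ± 3.70 CPM in wild type (SD, n = 3 each) and fell by 1.30 on the log2 scale (edgeR adjusted p = 0.0265). Its wild type replicate 3 stood at 4.94 CPM, near the Lingo3-/- libraries, and the call was lost in every fit without 1 library except that without wild type replicate 3 (edgeR adjusted p = 0.0525 to 0.127). Il34, the other ligand of Csf1r, averaged 0.658 ± 0.0543 CPM in Lingo3-/- and 0.824 ± 0.292 CPM in wild type (SD, n = 3 each; edgeR adjusted p = 0.602). Pros1, a ligand of Mertk, rose by 0.89 on the log2 scale (edgeR adjusted p = 0.0225), whereas Gas6, the other Mertk ligand, had 0.17 (edgeR adjusted p = 0.478). Pros1 lost its call without Lingo3-/- replicates 2 (0.0564) or 3 (0.0913) and without wild type replicate 3 (0.0592). Xcl1, the ligand of Xcr1 and a product of lymphocytes, fell by 1.19 (edgeR adjusted p = 0.00858), and the T cell receptors of Cd86, Cd28 and Ctla4, fell by 1.95 and 1.98 (edgeR adjusted p = 0.00191 and 0.0155). Ctla4 lost its call without Lingo3-/- replicates 2 (0.0614) or 3 (0.0598) and without wild type replicate 2 (0.0706). Xcl1, Il34 and Gas6 are named here after their values were seen. The monocyte chemokine genes Ccl2, Ccl7, Ccl8 and Ccl12 missed the filter.

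Partners of C1q in the complement system were measured as well. Of 11 tested complement genes 0 passed by edgeR and by limma-voom, 2 were lower at an unadjusted p under 0.05, and 1 fell by DESeq2. Without wild type replicate 3, 5 fell, beside 743 of all 16677 genes tested. Without Lingo3-/- replicate 2, 1 rose, beside 898 of all 17787 genes tested. The median log2 fold change of the 11 was -0.68, and wild type replicate 1 was the highest of the 6 libraries for 10 of them. The summed level of the 12 listed partners was 712, 386 and 635 CPM in Lingo3-/- replicates 1, 2 and 3, the order seen for C1q, and 2090, 1160 and 589 CPM in the wild type replicates. C1ra, a protease that binds C1q and an example chosen after its values were seen, had 9.01, 5.57 and 8.16 CPM in Lingo3-/- and 20.0, 15.1 and 5.72 CPM in wild type libraries (edgeR adjusted p = 0.321). Wild type replicate 3 was low and the other wild type libraries high. Of 10 MHC class II genes 2 fell, beside 5.97% of all genes tested. They were H2-Oa and H2-Ob (log2 fold changes -1.59 and -1.42, edgeR adjusted p = 0.0269 and 0.0275). Without any 1 of the Lingo3-/- replicates 0 fell. Without wild type replicate 1, 3 fell, and without wild type replicate 2 or 3, 1 fell. The class II chain gene H2-Ab1, chosen in the same way, averaged 30.9 ± 8.31 CPM in Lingo3-/- and 38.8 ± 11.2 CPM in wild type (SD, n = 3 each; edgeR adjusted p = 0.463).

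Markers of other cell types moved in the same libraries, where 5.97% of all genes tested fell and 9.43% rose by edgeR. Of 16 T cell and intraepithelial lymphocyte markers 14 fell and 0 rose by edgeR, 16 fell by DESeq2 and by limma-voom with 0 higher, and 16 were lower and 0 higher at an unadjusted p under 0.05. Their summed level was 239, 135 and 224 CPM in Lingo3-/- replicates 1, 2 and 3 and 378, 445 and 447 CPM in the wild type replicates, with no marker at 0 in all 6 libraries. Among those that fell were Cd8b1, Cd4 and Gzmb (log2 fold changes -2.40, -2.08 and -1.37). Of 12 pan-leukocyte genes 9 fell and 0 rose (11 lower and 0 higher at an unadjusted p under 0.05; 9 lower by DESeq2 and by limma-voom), and their sum was 173 to 257 CPM in Lingo3-/- and 377 to 460 CPM in wild type libraries. Coro1a, Arhgdib and Cd52 had log2 fold changes of -1.43, -1.27 and -1.18. Laptm5, Fcer1g, Tyrobp, Ncf1, Ncf4, Ccr2, Cx3cr1, Mertk and Aif1 were lower in every Lingo3-/- library together with these lists. The part of lymphocytes in their change was not tested.

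The other lists were less even, and their counts stand beside 5.97% of all genes tested that fell and 9.43% that rose by edgeR. Of 10 B cell and plasma cell markers 4 fell, among them Pax5, Mzb1 and Cd79b (log2 fold changes -2.16, -2.07 and -1.67). Their summed level was 38.4 to 43.8 CPM in Lingo3-/- and 61.5 to 121 CPM in wild type libraries. That number was 1 without Lingo3-/- replicates 2 or 3 and 7 without wild type replicate 1. Mzb1 lost its call without Lingo3-/- replicates 2 (edgeR adjusted p = 0.0752) or 3 (0.0549) and without wild type replicate 2 (0.0800), and Cd79b without Lingo3-/- replicates 2 (0.0650) or 3 (0.0617). Of 11 neutrophil markers 2 could be tested and S100a9 fell (-2.74, edgeR adjusted p = 0.00315; 2 fell without Lingo3-/- replicate 1 or wild type replicate 1). By DESeq2, which gave S100a9 no adjusted p, 0 neutrophil markers fell. With a filter for a mean CPM of at least 1, 0 fell as well. Mpo and Elane had 0 counts in all 6 libraries. The neutrophil sum was 14.6 to 30.5 CPM in Lingo3-/- and 30.6 to 81.4 CPM in wild type libraries. Of 8 tested fibroblast and endothelial markers 2 fell, Kdr and Pecam1 (-1.39 and -0.99), and 4 fell by DESeq2, by limma-voom and, in edgeR, without wild type replicate 3. Their sum was 230 to 470 CPM in Lingo3-/- and 345 to 999 CPM in wild type libraries. Of 13 epithelial markers 2 rose, Cdx1 and Krt18 (log2 fold changes 0.63 and 0.49). That number was 1 without Lingo3-/- replicate 3, where Krt18 lost its call (edgeR adjusted p = 0.0589), and 4 without wild type replicate 1. With library totals only 10 epithelial markers rose, in a fit where 5415 of all 16856 genes tested rose. The epithelial sum was 15800 to 17900 CPM in Lingo3-/- and 14700 to 15700 CPM in wild type libraries. Of 5 tested mast cell and eosinophil markers Kit rose (0.53, edgeR adjusted p = 0.00466). The 7 defining macrophage markers summed to 177, 35.0 and 94.7 CPM in Lingo3-/- replicates 1, 2 and 3 and 71.1, 64.1 and 59.1 CPM in the wild type replicates. Most of this sum was Lyz2, whose level is uncertain. The 6 markers without Lyz2 summed to 16.4, 6.90 and 10.1 CPM in Lingo3-/- and 8.37, 10.1 and 7.55 CPM in wild type libraries. Replicate 1 was again the highest Lingo3-/- library and replicate 2 the lowest. The sums of the T cell, pan-leukocyte, MHC class II, complement and fibroblast and endothelial lists had the same order among the Lingo3-/- libraries, so it was not particular to macrophage genes. The part of what these lists share in the macrophage values was not tested.

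**Figure D4:**
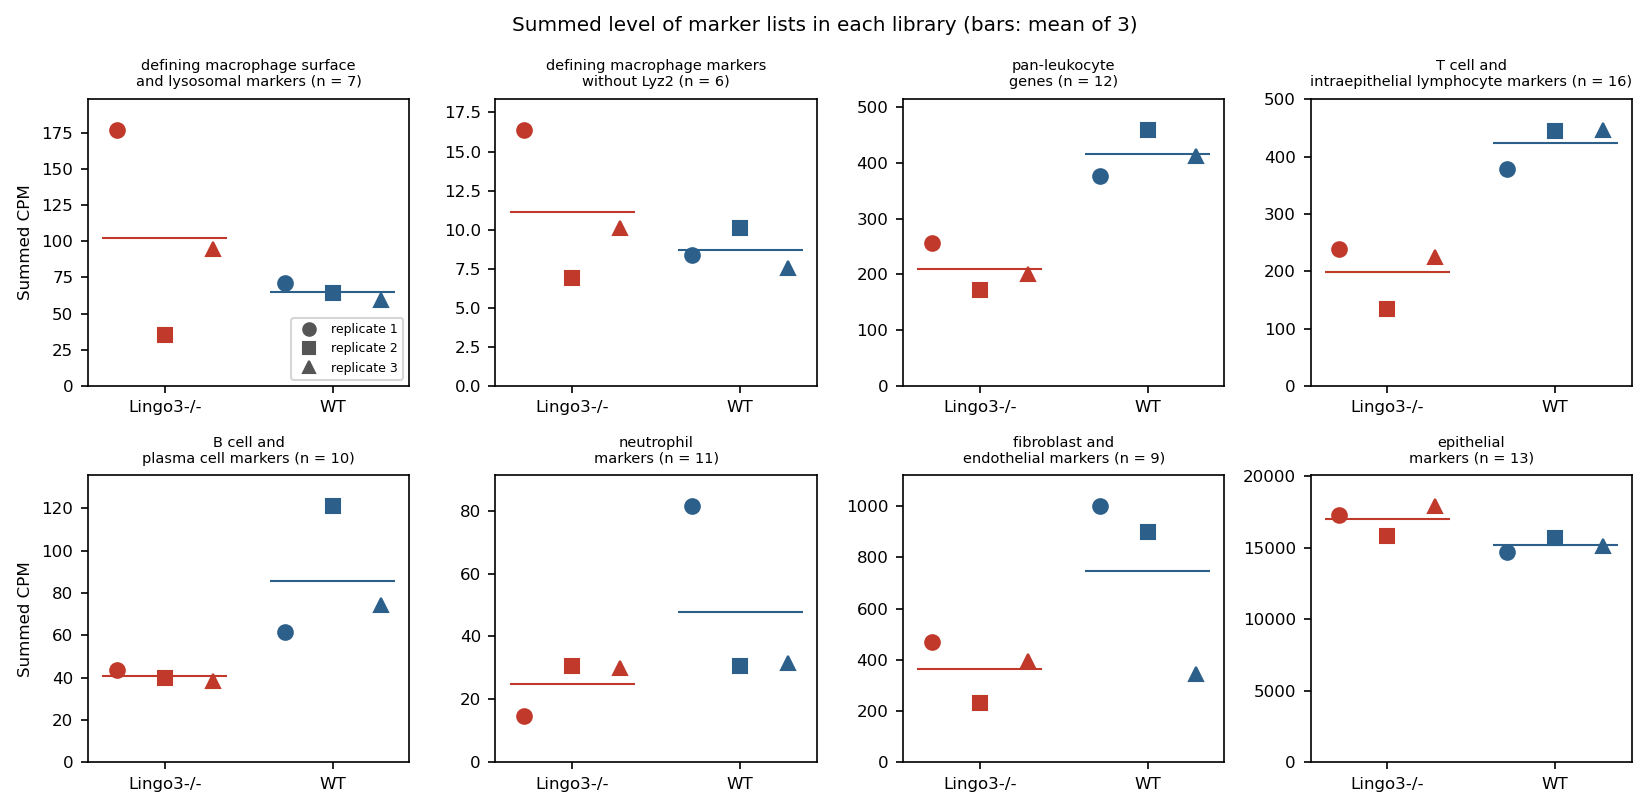
Summed CPM of marker lists in each library, Lingo3-/- on the left and wild type on the right of each panel, with symbols for replicates and bars for the mean of 3 libraries. The sum of 7 macrophage markers, most of it Lyz2, runs from 35.0 to 177 CPM in Lingo3-/- and from 59.1 to 71.1 CPM in wild type libraries. Without Lyz2 it runs from 6.90 to 16.4 CPM in Lingo3-/- and from 7.55 to 10.1 CPM in wild type libraries, while the T cell sums do not overlap (135 to 239 CPM in Lingo3-/- and 378 to 447 CPM in wild type).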

How the data were processed

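RNA-seq libraries of the colon epithelial fraction were analysed, 3 from Lingo3-/- and 3 from wild type mice. Per the labels, total RNA was depleted of ribosomal RNA with Ribo-Zero Gold and made into stranded TruSeq libraries. Tools named in the submitters' processing notes are Trimmomatic 0.39, STAR, HTSeq and DESeq2, with the build GRCm38. Neither names a strand setting for counting or an annotation release.

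Raw counts per gene are deposited without normalisation by the authors, and the table's summary lines (53.6 to 60.1% of reads per library) were left out. The authors' comparison table gives log2 fold changes, p-values (unadjusted and adjusted), a score (the Wald statistic) and a signal column of normalised counts per library, per the file headers. It was used for gene names and as the authors' values.

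Genes were kept with filterByExpr (minimum count 10, minimum total 15), scaled with TMM and tested with edgeR 4.0.16 (R 4.3.3) by the robust quasi-likelihood test, 2-sided, with genotype as the only term and a threshold of 0.05. The main edgeR fit was tested on simulated counts with 200 changed genes. Each gene had the same dispersion in both genotypes there, so an unequal spread between genotypes was not covered. Alternatives used DESeq2 1.42.0, limma 3.58.1 (voom), other scaling factors and filters, a replicate block, a threshold of 0.1 and fits without each library. Positions and exon lengths came from GENCODE M21 (GRCm38), which holds 98.0% of the 46078 genes. No libraries agreed within sampling noise (lowest chi-square per degree of freedom 8.74).

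All 38 genes are accounted for by rule, and from other lists up to 3 genes past the threshold per direction are named, with other examples marked. The members and lists were chosen with earlier results of these data known.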

Additional observations from a re-analysis of the deposited data

How the results depend on the processing

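Without single libraries the genes that rose ran from 711 to 1677 over all genes, 0 to 5 of the macrophage and dendritic cell genes and 1 to 3 of the other phagocyte genes, and those that fell from 413 to 1070, 3 to 9 and 1 to 2. With library totals only 5415 of all genes rose and 420 fell (92.8% higher, against 61.2%), with 1 macrophage or dendritic cell gene and 8 other phagocyte genes higher, and the median over all genes was 0.26 (log2), against -0.03. With upper-quartile factors 45.4% of calls were higher. With DESeq2 1 macrophage or dendritic cell gene rose and 2 other phagocyte genes fell. With no filter 1980 of all 29129 genes rose and 1675 fell, 4 macrophage and dendritic cell genes rose, and of the other phagocyte genes 5 rose and 4 fell. At a threshold of 0.1, 2245 of all genes rose and 1697 fell, 1 macrophage or dendritic cell gene rose and 3 other phagocyte genes fell. Over 14 alternative fits of the tested macrophage and dendritic cell genes, 12 fold changes turned sign, none of them of a called gene. With library totals only these were Csf3r (0.08), Cd68 (0.14) and Cybb (0.28). Without single libraries the ranges were -0.97 to 0.08 for Csf1r, -1.33 to 0.27 for Csf3r, -0.24 to 0.07 for Cd68, -0.19 to 0.61 for Fcgr3 and -0.88 to 0.35 for Cybb. The cause was not tested.

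The replicate numbers did not pair the libraries, since deviations from the group mean correlated at -0.03, -0.11 and -0.13 across genes for numbers 1, 2 and 3, and no library correlated best with its own number. With the number as a block 7 macrophage and dendritic cell genes fell and 0 rose, and over all genes 868 fell and 1193 rose. Laptm5, H2-Oa, Ccl5 and Ighm lost their call in this fit, and Tyrobp gained one. Of the 5 dendritic cell markers 4 had too few counts to meet the filter, and low levels and limited depth cannot be told apart there.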
